A study of Mus musculus with 4 samples.

Results

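Mitochondrial carriers are the Slc25 family of membrane transporters, most of which sit in the inner mitochondrial membrane and exchange nucleotides, phosphate, amino acids, carboxylates, cofactors and metals between the matrix and the cytosol. They are encoded by nuclear genes, and their mRNAs are translated in the cytosol. The proteins then enter through the outer membrane pore and are placed in the inner membrane by small chaperones and the TIM22 insertase, mostly without a cleaved leader sequence. The genes described here are the 47 of 49568 in the deposited table whose symbol is Slc25a followed by a number.

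The series asked which RNAs purified migrasomes carry. Migrasomes are large vesicles that grow on the retraction fibres left behind a migrating cell. Total RNA of mouse origin was sequenced from purified migrasomes (2 libraries) and from cytosol (2 libraries), with no genotype, treatment, age or cell type given in the labels. Whether both libraries of a group go back to independent cultures is not in the labels, so p-values below describe the spread of these particular samples and that spread may be technical.

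The libraries held 5171092 to 8608369 reads assigned to genes. Values are the deposited normalised read counts. A difference is the migrasome mean minus the cytosol mean of log2(value + 1), a scale that understates the change of low genes, with a standard error (SE) from limma and an adjusted p (Benjamini-Hochberg over 10860 genes, threshold 0.05). With 2 libraries a side, the smallest p of an exact permutation test is 0.33, so every call rests on the spread shared across genes. Fewer organelles or cells and less RNA in each cannot be told apart in such bulk samples. The libraries labelled cytosol also held nuclear-retained RNA, with Malat1 at 10534 and 5593. Migrasome held Malat1 too, at 5102 and 3882 (difference -0.79, limma adjusted p = 0.084). All 3 tested nuclear-retained RNAs had negative differences (median -0.86). By limma 1 of the 3 was lower, by edgeR 2 and by DESeq2 all 3, Malat1 included. Among all genes tested, 17.7%, 19.0% and 14.7% were lower by these methods. All 9 tested of the 13 mitochondrially encoded mRNAs rose in migrasome (median difference 2.18, and DESeq2 called 8). Among them, mt-Co2 (0.78 and 4.80 in cytosol, 12.7 and 14.5 in migrasome) entered the test only through its migrasome values. It therefore had to differ and is no support for a rise. The untested mt-Atp6, mt-Atp8, mt-Nd3 and mt-Nd4l stood between 0 and 3.95.

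Of the 47 carriers, 36 reached 10 in 2 or more libraries and were tested. Slc25a5 rose, Slc25a29, Slc25a37 and Slc25a44 fell, and the other 32 did not pass the limma test. Slc25a29 entered the test only through its cytosol values, so its call counts here as a description. Slc25a27 entered in the same way without being called, so its place below cytosol was also set by the filter. Among all genes tested, 8.68% were called higher and 17.7% lower, so 1 and 3 of 36 are no larger shares than the background. edgeR called 1 higher and 3 lower, beside 9.86% and 19.0% of all genes, and DESeq2 called 2 higher and 2 lower, beside 10.5% and 14.7%. The tested carriers had a median difference of -0.16, beside -0.0043 for all genes tested, and 16 differences were positive and 20 negative. That split depended on scaling, with 7 positive and 29 negative with libraries scaled to the same total, and 21 positive and 15 negative with quantile normalization. Differences under 0.5 in size were seen for 22 of the 36, with SEs from 0.20 to 0.61 and a median SE of 0.24. At an unadjusted p of 0.05, limma passed 10 carriers (4 higher, 6 lower), beside 41.6% of all genes (17.4% higher, 24.2% lower). Both migrasome libraries lay above both cytosol libraries for 10 carriers and below them for 16, beside 33.3% and 36.3% of all genes tested.

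**Figure D1:**
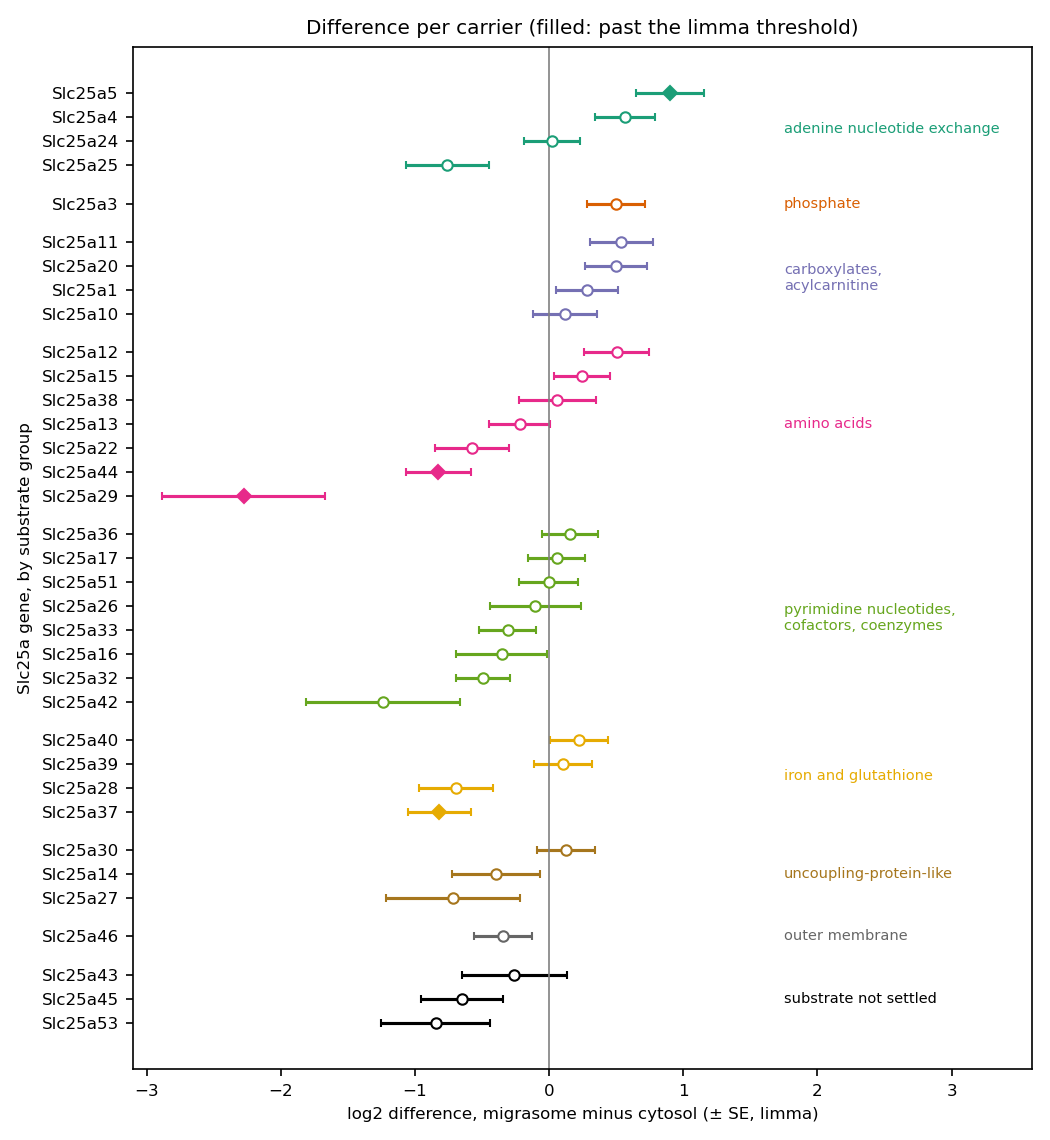
Log2 difference (migrasome minus cytosol, x axis, with its SE from limma) of 35 tested Slc25a genes, grouped by what the protein carries. Filled diamonds passed the threshold; most points lie within 0.5 of 0, Slc25a5 is highest at 0.90 and Slc25a29 lowest at -2.28.

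The ADP/ATP carriers export the ATP made in the matrix and return ADP, and are among the most abundant inner membrane proteins. Slc25a5, also known as Ant2, lies on chromosome X, plus strand, from 36795651 to 36798807 (all positions here are of GRCm38, with GENCODE M21 genes). It was the highest of all members in every library, at 4295 in cytosol replicate 1, 4053 in cytosol replicate 2, 9660.5 in migrasome replicate 1 and 6293 in migrasome replicate 2. Pairs of values below are always in this order of replicates. Both migrasome libraries stood above both cytosol libraries, with replicate 1 well above replicate 2. The mean rose from 4174 ± 172 (SD, n = 2) to 7977 ± 2381, which is 1.91 times the cytosol mean, and the difference was 0.90 ± 0.25 (SE, with adjusted p = 0.028 in limma). The call was lost without a filter on low values, with libraries scaled to the same total, with quantile normalization, with eBayes without a trend and when either cytosol library was left out (adjusted p of 0.060 to 0.28, limma). Quantile normalization lowered the difference to 0.30, and leaving out migrasome replicate 1 lowered it to 0.59. Mitochondrially encoded mRNAs summed to 66543 in migrasome replicate 1 and 136494 in replicate 2, and to 17749 and 28596 in cytosol. Most of the migrasome sum was mt-Co1, at 47373 and 111818. In migrasome, mt-Nd2 (2056 and 1463), mt-Nd6 (703 and 433) and mt-Co3 (209 and 186) had the same order as Slc25a5. The order was opposite for mt-Co1, mt-Co2, mt-Nd1 (5521 and 9205), mt-Nd4 (1358 and 1820) and mt-Cytb (5341 and 7561). For mt-Nd5 the values were nearly equal, at 3963 and 3988. In cytosol the mitochondrially encoded mRNAs made up 0.304% and 0.484% of all reads, in migrasome 0.900% and 2.01%. Their part in the results on the carriers was not tested.

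Slc25a4, also known as Ant1 and the form of heart and muscle, lies on chromosome 8, minus strand, from 46206797 to 46211284. Its values were 2448 and 2501 in cytosol and 4250 and 3157 in migrasome. The groups did not overlap here either, yet the difference of 0.57 ± 0.22 did not pass (limma adjusted p = 0.084). It did pass with DESeq2 (adjusted p = 0.046) and without migrasome replicate 2 (0.78, limma adjusted p = 0.0058). It shrank to 0.29 with libraries scaled to the same total, 0.12 with quantile normalization and 0.35 without migrasome replicate 1 (limma adjusted p = 0.27, 0.60 and 0.21). Slc25a31, the form known from testis, had no read in any library, below the value of 3 reads (2.06 to 4.24, counting error only).

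The coding sequences of Slc25a4 and Slc25a5 are alike, and that bears on how far reads can be told apart. Without the stop codon, each has 894 coding bases, of which 77.4% are identical, and the longest identical run is 20 bases. The stretch around that run, in exon 2 of both genes, is shown 5′ to 3′ on the coding strand, from GENCODE transcripts, with capitals for the 18 of 80 bases that differ. Slc25a4 is at chr8:46209249-46209328 (minus strand) and Slc25a5 at chrX:36797023-36797102 (plus strand).
Slc25a4: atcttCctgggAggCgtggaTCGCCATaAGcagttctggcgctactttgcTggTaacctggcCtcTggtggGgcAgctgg
Slc25a5: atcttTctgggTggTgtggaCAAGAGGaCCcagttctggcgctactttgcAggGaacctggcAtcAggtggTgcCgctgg
No stretch of 50 bases in Slc25a4 transcripts was found in a transcript of another gene. In Slc25a5, 33.8% of such stretches occur also in 9 annotated pseudogenes, so its value is uncertain where reads map to several places. The 9 pseudogenes together stood at 10.1 and 12.3 in cytosol and at 29.7 and 21.1 in migrasome. That is 0.235% to 0.335% of the Slc25a5 value in each library, and 3 of the 9 had no read.

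Per kilobase of exon, Slc25a5 stood at 2.51 and 2.32 times Slc25a4 in cytosol, and at 3.25 and 2.85 times in migrasome. The ratio was thus higher in both migrasome libraries. The difference in this ratio was not tested.

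The phosphate carrier Slc25a3, which brings in the phosphate that ATP synthase uses, was at 2453 and 2726 in cytosol and 4060.2 and 3285 in migrasome. All migrasome values were above those of cytosol, and the difference of 0.50 ± 0.21 did not pass (limma adjusted p = 0.11). Without migrasome replicate 2 it passed at 0.65 (limma adjusted p = 0.017), and it shrank to 0.23 with libraries scaled to the same total and 0.045 with quantile normalization (0.38 and 0.86).

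The ATP-Mg/phosphate carriers set the size of the adenine nucleotide pool in the matrix, and most of them respond to calcium. Slc25a24 was the fourth highest member, at 1769 and 2149.5 in cytosol and 2124 and 1845 in migrasome. Its groups overlapped, with a difference of 0.02 ± 0.21 (limma adjusted p = 0.95), and the sign turned in 4 settings. Slc25a25 went from 169.9 and 244 to 91.9 and 157, all migrasome values below those of cytosol, with a difference of -0.76 ± 0.31 that did not pass (limma adjusted p = 0.092). Without migrasome replicate 2 it was -1.14 (limma adjusted p = 0.0047). Quantile normalization gave -0.45, leaving out migrasome replicate 1 gave -0.38 and leaving out cytosol replicate 2 gave -0.50 (limma adjusted p = 0.27, 0.32 and 0.44). Exons of Slc25a25 share 379 bases with Naif1 on the opposite strand, which stood at 37.2 and 41.2 in cytosol and 22.6 and 27.6 in migrasome. Per kilobase, Slc25a25 was 0.042 and 0.050 times Slc25a24 in cytosol and 0.019 and 0.037 times in migrasome. Slc25a23 stayed under the filter, at 2.33 and 3.43 in cytosol and 9.90 and 6.58 in migrasome, and Slc25a41 had no read.

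**Figure D2:**
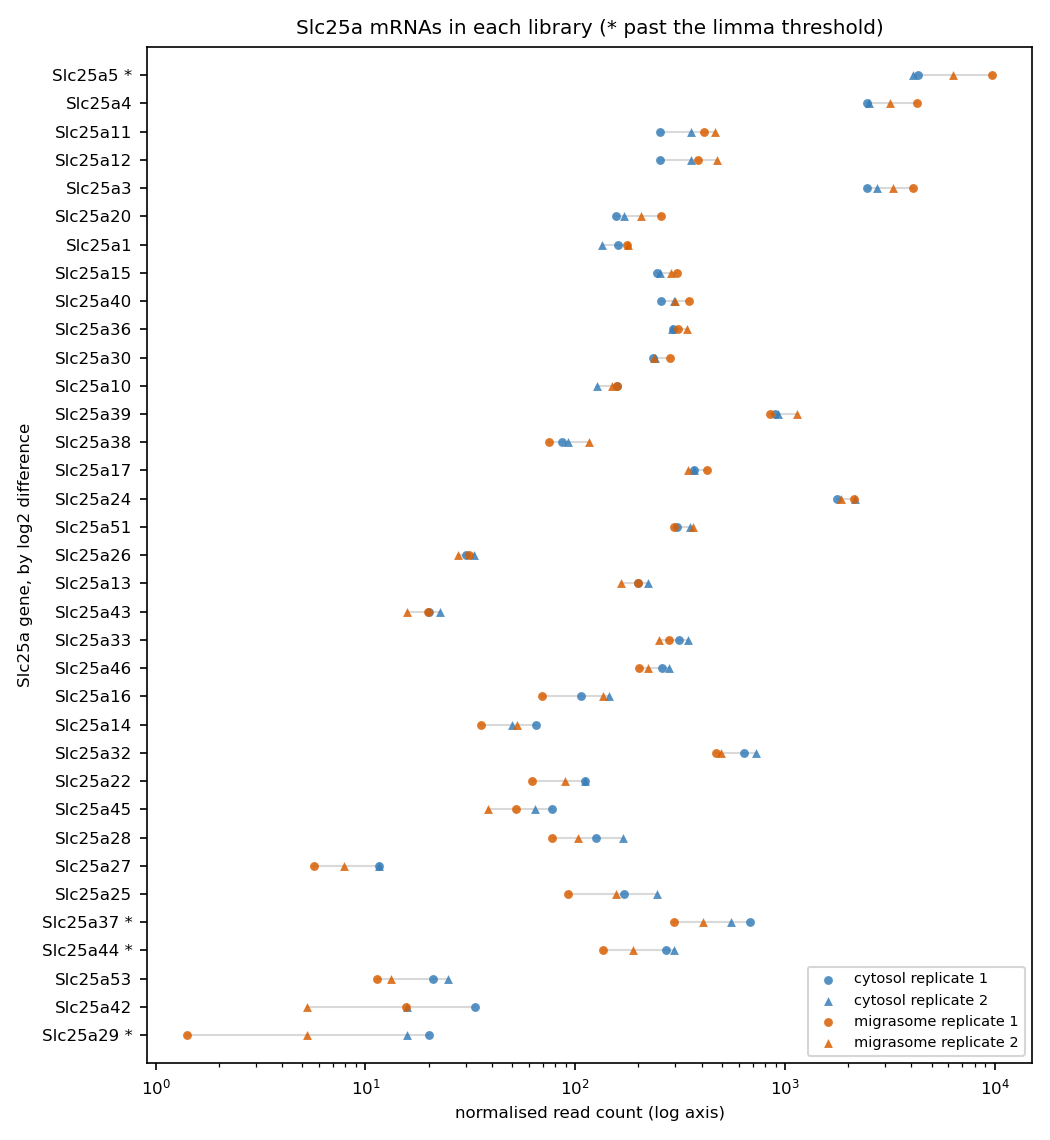
Normalised read count (log x axis) of 35 tested Slc25a genes in each of the 4 libraries, ordered by log2 difference, with blue for cytosol, orange for migrasome, circles for replicate 1 and triangles for replicate 2. The groups are apart for Slc25a5 and Slc25a4 at the top and for Slc25a37, Slc25a44 and Slc25a29 at the bottom, and overlap for 10 genes, such as Slc25a24 and Slc25a51.

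The 4 highest members, Slc25a5, Slc25a3, Slc25a4 and Slc25a24, made up 61.3% and 60.8% of the summed family value in cytosol and 75.8% and 67.4% in migrasome. The share of Slc25a5 alone was 24.0% and 21.5% in cytosol and 36.4% and 29.1% in migrasome. The other 43 members summed to 6913 and 7381 in cytosol and 6415 and 7042 in migrasome, ranges that overlap. All members together summed to 17878 and 18809.8 in cytosol and 26509 and 21623 in migrasome, values that were apart. As a part of all reads, the family held 0.306% and 0.319% in cytosol and 0.359% and 0.318% in migrasome, and these shares overlapped.

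The carboxylate and acylcarnitine carriers link the citric acid cycle and fatty acid oxidation to the cytosol. None of the 4 tested passed with limma, edgeR or DESeq2 (1 was higher at an unadjusted limma p of 0.05), and all 4 differences were positive, with a median of 0.39 (3 of 4 with libraries scaled to the same total, where Slc25a10 turned negative). Slc25a11, the oxoglutarate/malate carrier of the malate-aspartate shuttle, stood at 252 and 357 in cytosol and 412 and 462 in migrasome (difference 0.54 ± 0.23, limma adjusted p = 0.11). The difference was 0.27 with libraries scaled to the same total and 0.29 without cytosol replicate 1. Exons of Slc25a11 overlap those of Rnf167 on the opposite strand by 189 bases, and Rnf167 was at 47.3 and 30.9 in cytosol and 19.8 and 39.5 in migrasome. Slc25a20, the carnitine/acylcarnitine carrier, stood at 156 and 170.1 in cytosol and 256 and 207 in migrasome, a difference of 0.50 ± 0.23 (limma adjusted p = 0.13). Slc25a20 passed with quantile normalization (0.75, limma adjusted p = 0.043) and without migrasome replicate 2 (0.65, limma adjusted p = 0.040). It stood at 0.22 with libraries scaled to the same total (limma adjusted p = 0.49) and 0.34 without migrasome replicate 1. The citrate carrier Slc25a1, which exports citrate for lipid synthesis, went from 159.8 and 134 to 177 and 179. Slc25a10, the dicarboxylate carrier, stood at 158 and 127 in cytosol and 158 and 150.03 in migrasome, and Slc25a21, an oxodicarboxylate carrier, was untested with at most 5 reads in a library.

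Among the amino acid carriers, Slc25a44 fell, the low Slc25a29 was called lower with a limit given with its values, and the other 5 tested did not pass. Slc25a44 (chromosome 3, 88410498 to 88425139, minus strand) carries branched-chain amino acids. It stood at 272 and 297 in cytosol and 136 and 188 in migrasome. Both migrasome values lay below both cytosol values. The mean fell from 284 ± 18.01 to 162 ± 37.1 (SD, n = 2), a difference of -0.82 ± 0.24 (SE, limma adjusted p = 0.033). Its call was lost without a filter, with quantile normalization, with eBayes without a trend, and without cytosol replicate 1, cytosol replicate 2 or migrasome replicate 1 (limma adjusted p between 0.065 and 0.19).

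Slc25a29 (chromosome 12, 108825873 to 108835883, minus strand), a carrier of basic amino acids, was a low gene. It had 26 and 23 reads in the cytosol libraries and 1 and 4 in the migrasome libraries, which are values of 20.2, 15.8, 1.41 and 5.26. The single read of migrasome replicate 1 lay under the value of 3 reads in that library (4.24), so the size of the difference depends on the pseudocount. The gene entered the test only through its cytosol values, so it had to differ and is no support for a fall, and its difference of -2.28 ± 0.61 (limma adjusted p = 0.023) is imprecise. A pseudocount of 5 gave -1.49. The call was lost without a filter, with DESeq2 and without either cytosol library (adjusted p from 0.059 to 0.17). Slc25a27 also entered only through its cytosol values, with 5.66 and 7.90 in migrasome. Slc25a42 passed the filter with migrasome replicate 2 under 10, at 5.26.

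The aspartate/glutamate carriers, which drive the malate-aspartate shuttle and are activated by calcium, differed in sign, except with quantile normalization, where Slc25a13 stood at 0.019. Slc25a12 was at 254 and 355 in cytosol and 385 and 471 in migrasome (difference 0.50 ± 0.24, limma adjusted p = 0.14). Slc25a13 was at 199 and 223 in cytosol and 198 and 165 in migrasome (-0.22 ± 0.23, limma adjusted p = 0.49). Neither passed, and the groups did not overlap for either gene. For Slc25a13 they were barely apart, at 198.59 in cytosol replicate 1 and 197.99 in migrasome replicate 1. That gap is smaller than the value of 1 read in these libraries (0.776 and 1.41). Per kilobase, Slc25a13 was 1.51 and 1.21 times Slc25a12 in cytosol and 0.995 and 0.675 times in migrasome. The ratio was lower in both migrasome libraries, a difference that was not tested. Their coding sequences are 70.0% identical, with a longest identical run of 21 bases.

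Of the remaining amino acid carriers, the ornithine carrier Slc25a15 of the urea cycle stood at 244 and 253 in cytosol and 305 and 286 in migrasome (limma adjusted p = 0.39). The glutamate carrier Slc25a22 went from 112 and 112 to 62.2 and 89.5 (limma adjusted p = 0.14), and without migrasome replicate 2 it passed at -0.83 (limma adjusted p = 0.025). Its difference of -0.58 became -0.32 without migrasome replicate 1 and -0.19 with quantile normalization (limma adjusted p = 0.40 and 0.60). Slc25a38, a glycine carrier needed for haem synthesis, was at 86.9 and 91.9 in cytosol and 75.0 and 116 in migrasome, with groups that overlapped. The other glutamate carrier, Slc25a18, had 2 or 3 reads in each library. Slc25a48, placed in this group without being an established amino acid carrier, had a single read in migrasome replicate 2, and Slc25a2 had none.

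The mitoferrins import iron for haem and iron-sulfur cluster synthesis. Slc25a37 (mitoferrin 1; chromosome 14, 69241848 to 69285112, minus strand) is best known from developing red cells. It stood at 683 and 552 in cytosol and 297 and 407 in migrasome, all migrasome values below those of cytosol. The mean fell from 617 ± 92.3 to 352 ± 77.6 (SD, n = 2), a difference of -0.82 ± 0.23 (SE, limma adjusted p = 0.029). Its call was lost without a filter, with eBayes without a trend, and without cytosol replicate 1 or migrasome replicate 1 (limma adjusted p from 0.061 to 0.22). Slc25a28 (mitoferrin 2), the form of most other cells, stood at 125 and 169 in cytosol and 77.8 and 103 in migrasome. Slc25a28 thus lay lower in both migrasome libraries too, with a difference of -0.69 ± 0.27 that did not pass (limma adjusted p = 0.085). With libraries scaled to the same total it passed at -0.96 (limma adjusted p = 0.042), and without migrasome replicate 2 at -0.89 (0.019). With quantile normalization it stood at -0.34 (limma adjusted p = 0.35).

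The mitoferrins are shown next to each other because their mRNAs lay on the same side in migrasome. Their coding sequences are 67.8% identical, and the longest identical run is 15 bases. The stretch below lies in exon 4 of both, from GENCODE transcripts, 5′ to 3′ on the coding strand, with capitals for the 14 of 75 bases that differ. Slc25a28 is at chr19:43664486-43664560 (minus strand) and Slc25a37 at chr14:69245197-69245271 (minus strand).
Slc25a28: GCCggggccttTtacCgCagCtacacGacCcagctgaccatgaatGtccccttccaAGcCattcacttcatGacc
Slc25a37: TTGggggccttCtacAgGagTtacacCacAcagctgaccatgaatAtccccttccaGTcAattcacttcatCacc
No stretch of 50 bases in Slc25a28 transcripts occurs in another gene. In Slc25a37 transcripts 6.99% do, and the annotated Gm27223 and Gm31748, which overlap its exons on the opposite strand, had no read in any library. Per kilobase, Slc25a37 was 3.40 and 2.04 times Slc25a28 in cytosol and 2.38 and 2.47 times in migrasome, so the ratio did not separate the groups. The size of this ratio depends on the length used. Merged exons span 3749 bases in Slc25a28 and 6021 in Slc25a37, and the transcripts with the longest coding part 1535 and 4174.

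The glutathione carriers Slc25a39 and Slc25a40 supply the matrix with its main thiol. Slc25a39, the fifth highest member, stood at 896 and 923 in cytosol and 843 and 1134 in migrasome, and Slc25a40 at 256 and 294 in cytosol and 346 and 297 in migrasome. The differences were 0.10 ± 0.22 and 0.23 ± 0.22 (limma adjusted p = 0.73 and 0.45). The groups of Slc25a39 overlapped, and migrasome replicate 1 was its lowest library and replicate 2 its highest.

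None of the 9 tested carriers of pyrimidine nucleotides, cofactors and coenzymes passed with limma, edgeR or DESeq2 (1 was lower at an unadjusted limma p of 0.05), with 2 positive and 7 negative differences (median -0.31). With quantile normalization 6 were positive and 3 negative. Slc25a32, which carries folate or a flavin cofactor, was the most abundant of them, at 636 and 723 in cytosol and 467 and 495 in migrasome. The groups did not overlap, and the difference of -0.50 ± 0.20 did not pass (limma adjusted p = 0.092). Slc25a32 passed at -0.77 with libraries scaled to the same total (limma adjusted p = 0.021) and at -0.54 without migrasome replicate 2 (0.048).

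The pyrimidine nucleotide carriers Slc25a33 and Slc25a36, which feed mitochondrial DNA and RNA synthesis, had opposite signs, except with libraries scaled to the same total, where Slc25a36 stood at -0.12. Slc25a33 was at 312 and 345 in cytosol and 279 and 251 in migrasome (limma adjusted p = 0.29), and Slc25a36 at 292 and 290.1 in cytosol and 308 and 341 in migrasome (0.60). Per kilobase, Slc25a36 was 0.18 and 0.17 times Slc25a33 in cytosol and 0.22 and 0.27 times in migrasome, values that did not overlap and were not tested.

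The NAD carrier Slc25a51, at 305 and 351 in cytosol and 294 and 363 in migrasome, had the difference nearest 0 of all tested members (-0.0014 ± 0.22). Slc25a17, which carries cofactors across the peroxisomal membrane and not the mitochondrial one, stood at 369 and 367 in cytosol and 424 and 345 in migrasome, with groups that overlapped (limma adjusted p = 0.86). Slc25a26, which brings in S-adenosylmethionine for methylation in the matrix, was at 30.3 and 32.9 in cytosol and 31.1 and 27.6 in migrasome. Slc25a16 was at 106 and 145 in cytosol and 69.3 and 136 in migrasome, and its groups overlapped. Slc25a42, a coenzyme A carrier, was at 33.4 and 15.8 in cytosol and 15.6 and 5.26 in migrasome, and its difference of -1.24 ± 0.57 did not pass (limma adjusted p = 0.13). Without migrasome replicate 1, Slc25a42 passed at -1.94 (limma adjusted p = 0.014), but leaving out migrasome replicate 2 gave -0.54 and leaving out cytosol replicate 1 gave -0.72 (0.37 and 0.61).

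The uncoupling-protein-like carriers resemble the proton carriers of brown fat. Slc25a30 stood at 234 and 241 in cytosol and 281 and 238 in migrasome, Slc25a14 at 65.2 and 50.1 and at 35.4 and 52.6, and Slc25a27 at 11.6 and 11.7 and at 5.66 and 7.90. None of the 3 passed with limma (adjusted p from 0.30 to 0.69), edgeR or DESeq2, or at an unadjusted limma p of 0.05, where the count was also 0. Slc25a27 was the member with the lowest mean to enter the test. Slc25a23, with 9.90 as its highest value and 6.58 as its next, stayed under the filter.

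Slc25a46 lies in the outer membrane, where it acts in the shape and fusion of mitochondria and not as a known carrier. It went from 258 and 278 to 201 and 222, with all migrasome values lower, and did not pass (-0.34 ± 0.22, limma adjusted p = 0.25). Members whose substrate is not settled were low. Slc25a45 stood at 77.6 and 64.5 in cytosol and 52.3 and 38.2 in migrasome, Slc25a43 at 20.2 and 22.6 and at 19.8 and 15.8, and Slc25a53 at 20.9 and 24.7 and at 11.3 and 13.2. Their differences ran from -0.85 to -0.26 without passing, though Slc25a53 passed with eBayes without a trend (limma adjusted p = 0.049). Slc25a34, Slc25a35 and Slc25a47 had at most 9 reads in a library, and Slc25a54 had none. In all, 7 members with reads stayed under the filter and 4 had no read.

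Positive differences were more common among abundant members, less so with quantile normalization. Of the 12 most abundant, 9 had positive differences (median 0.13), and of the other 24, 7 were positive and 17 negative (median -0.35). Across the 36 members, Spearman's rank correlation between the log2 mean value and the difference was 0.61, beside 0.29 across 10621 genes with an annotation. Both measures come from the same 4 libraries, and genes are not independent replicates, so this describes the members and carries no p. Part of it is set by the filter, since Slc25a27, Slc25a29 and Slc25a42 are low and had a migrasome value under 10. Without these 3 (this and the other alternatives for the level relation were chosen after seeing the data), the rank correlation was 0.52 over 33 members, and 14 of the 21 below the 12 highest were negative (median -0.31). Over all 36 it was 0.61 with libraries scaled to the same total, 0.62 with edgeR and 0.61 with DESeq2. With quantile normalization it was 0.27 for the members (0.087 without those 3) and -0.0090 for all genes tested. Positive differences numbered 8 of the 12 and 13 of the 24 with quantile normalization, and 5 of the 12 and 2 of the 24 with libraries scaled to the same total. The rank correlation with the difference was -0.26 for transcript length, -0.25 for the length of the 3′ UTR and -0.18 for GC content, beside -0.15, -0.15 and -0.12 across all annotated genes. The tested carriers have short coding parts, with a median of 963 bases beside 1395 for all genes. Their median GC content was 50.02%, beside 50.4% for all genes.

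**Figure D3:**
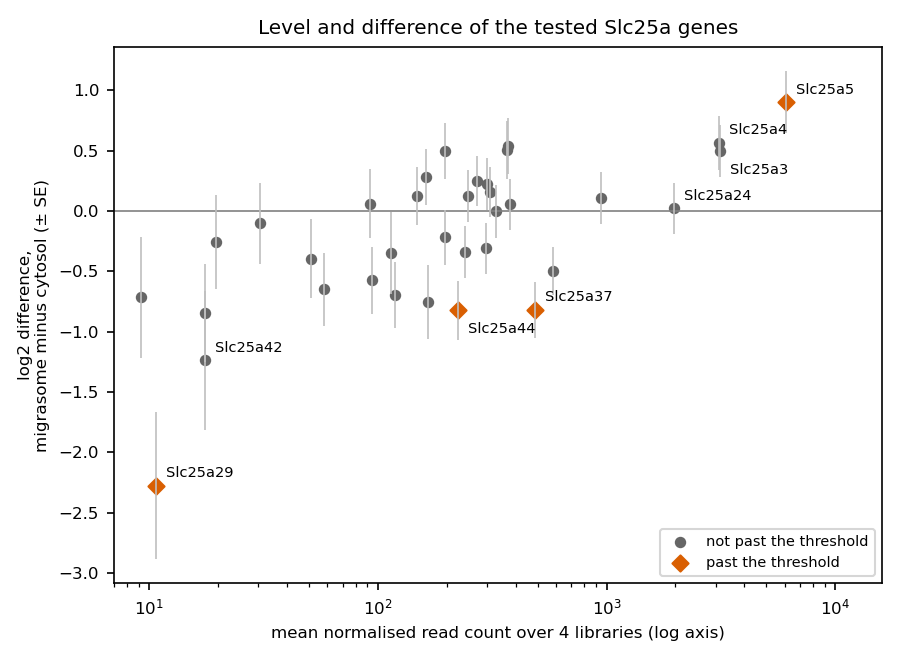
Mean normalised read count over the 4 libraries (log x axis) against the log2 difference (y axis, with its SE from limma) for 35 tested Slc25a genes. The 4 most abundant genes lie at or above 0, from 0.02 for Slc25a24 to 0.90 for Slc25a5. Slc25a29 and Slc25a42, the lowest, each had a migrasome value under 10, so the filter bears on their place. With quantile normalization Slc25a24 lies at -0.33 and the level relation falls to a rank correlation of 0.27.

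The carriers were set beside the other solute carriers, most of which are transporters of other membranes and whose mRNAs are mostly translated at the endoplasmic reticulum. Of 331 other genes with an Slc symbol, 133 were tested. By limma, 87 fell (65.4%) and 1 rose (0.752%), beside 17.7% and 8.68% of all genes tested, with a median difference of -1.36. Taken by symbol, the 133 also hold Slc9a3r1, Slc9a3r2, Slc7a6os and Slc4a1ap, genes named after a carrier rather than as one. The count that fell was 95 with libraries scaled to the same total and 70 with quantile normalization. Of the 36 carriers, 3 fell (8.33%) and 1 rose, with Slc25a29 among the 3 and tested only through its cytosol values. The same filter held for the other solute carriers. Some of those that fell, such as Slc46a3 and Slc7a2, were also tested only through their cytosol values. In cytosol, the median log2 value of the carriers lay above that of the other solute carriers by 0.36 and 0.65, and in migrasome by 1.87 and 1.54. Every migrasome value of that gap was larger than every cytosol value. The gap was not tested, and the direction of the carriers themselves depended on scaling: their median was -0.43 with libraries scaled to the same total and 0.03 with quantile normalization. Slc8b1, the mitochondrial sodium/calcium/lithium exchanger that is no Slc25 gene, fell from 106 and 59.7 to 17.0 and 18.4 (difference -2.11 ± 0.36, limma adjusted p = 0.0029).

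Carrier family genes under other symbols did not pass. Mtch2, an outer membrane insertase of this family, was at 899.9 and 1128 in cytosol and 1363 and 1424 in migrasome (0.47 ± 0.21, limma adjusted p = 0.12). Mtch1, its relative, differed by 0.24 ± 0.20, and Ucp2, an uncoupling protein relative, by 0.82 ± 0.38 with groups that overlapped. Ucp1, the proton carrier of brown fat, had no read.

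Of 18 tested genes of the route by which carriers are imported, 4 rose (22.2%) and none fell, with a median of 0.10. Among all genes tested, 8.68% rose and 17.7% fell. With libraries scaled to the same total, 1 rose with a median of -0.18, and with quantile normalization 0 rose. None was lower by edgeR, DESeq2 or an unadjusted limma p of 0.05 either (0 in each). Those that rose were the cytosolic chaperones Hspa8 (0.81 ± 0.25), Hsp90aa1 (0.91 ± 0.24) and Hsp90ab1 (0.91 ± 0.30), and Tomm7, a small subunit of the outer membrane pore (0.73 ± 0.23). Tomm70a, the receptor for carrier precursors, stood at 1855 and 2611 in cytosol and 1949 and 2243 in migrasome without passing. Timm22, the inner membrane insertase, was at 343 and 394 and at 327 and 296 (limma adjusted p = 0.41).

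Of 16 other inner membrane transporters and their regulators, 2 rose (12.5%) and 2 fell (12.5%), beside 8.68% and 17.7% of all genes tested. Their median was 0.26 (-0.0082 with libraries scaled to the same total). Ghitm (1.07 ± 0.24) was among those that rose, and Slc8b1 and the haem-linked transporter Abcb10 (-0.78 ± 0.22) fell. The pyruvate carrier genes Mpc1 and Mpc2 both differed by 0.55 without passing. The 21 citric acid cycle and pyruvate enzymes have proteins that reside in the matrix or on the inner membrane. That list also holds Glud1 and Got2, enzymes of amino acid metabolism, and both are among those that rose by limma. Of the 21, 12 rose by limma (57.1%), beside 8.68% of all genes tested. edgeR called 16 higher and DESeq2 18, beside 9.86% and 10.5% of all genes. The count that fell was 0 by each method and at an unadjusted limma p of 0.05, beside 14.7% to 24.2% of all genes. All 21 differences were positive (median 0.70). With libraries scaled to the same total 3 rose, and with quantile normalization 7, with all 21 still positive. Cs, citrate synthase, was at 1896 and 2014 in cytosol and 3629 and 3697 in migrasome (0.91 ± 0.20, limma adjusted p = 0.010). No difference between these lists and the carriers was tested. The lists also differed in level. In cytosol the median log2 value was 9.35 and 9.64 for these enzymes and 7.76 and 7.93 for the carriers. For the other solute carriers it was 7.40 and 7.27. The part of level in the medians of the lists was not tested.

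**Figure D4:**
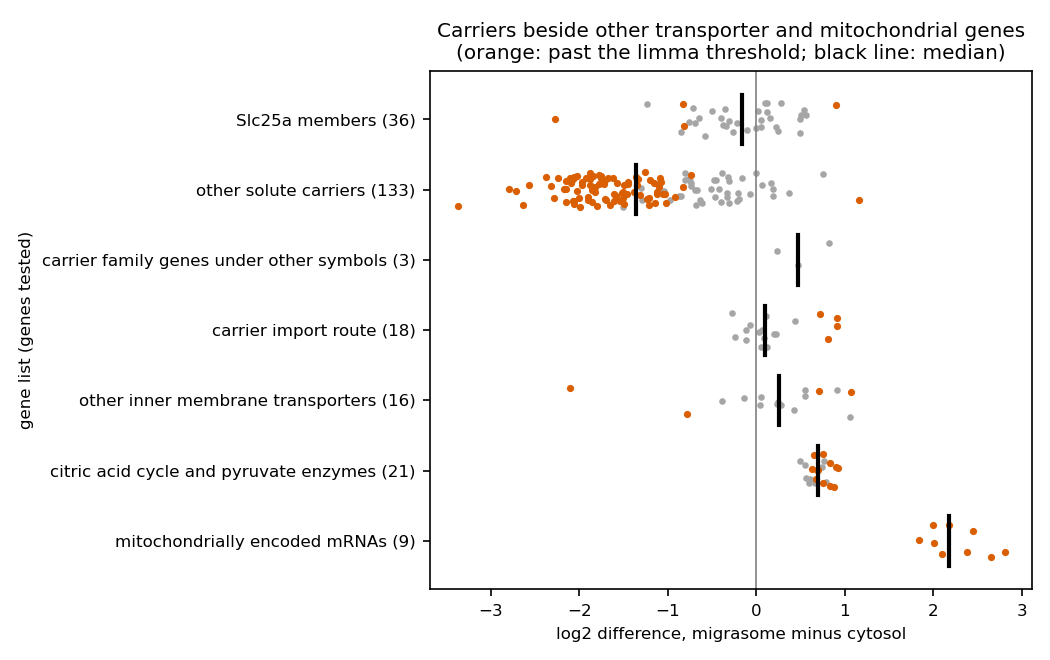
Log2 difference (migrasome minus cytosol, x axis) of each tested gene in 7 lists, with orange points past the limma threshold and black lines at the medians. The carriers centre at -0.16, between the other solute carriers at -1.36 and the citric acid cycle and pyruvate enzymes at 0.70. The lists also differ in level.

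**Figure D5:**
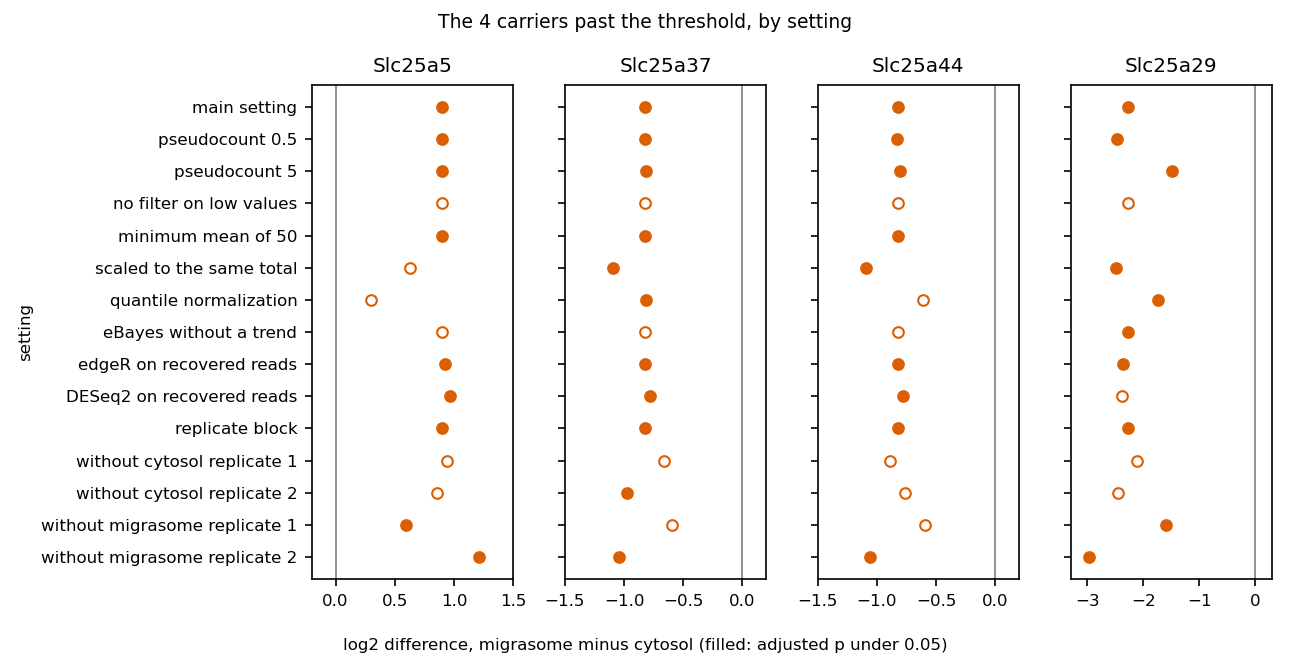
Log2 difference (x axis, a scale for each panel) of the 4 carriers past the threshold under each setting (y axis), filled where the adjusted p is under 0.05. Each keeps its direction in every setting drawn, and each has empty points, such as all 4 without cytosol replicate 1; Slc25a29 has no value at a minimum mean of 50.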

How the data were processed

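RNA of 2 migrasome and 2 cytosol libraries was compared, grouped by the sample titles. Per the submitters' processing notes, reads were handled with cutadapt, Trimmomatic, FastQC, STAR, HTSeq and DESeq against GRCm38; versions, annotation, strand and multi-mapping rules were not given in the sources used here. What was deposited is a normalised signal for each gene, a read count over a size factor of its library. All values were whole multiples of the value of 1 read (tolerance 0.001), which gave back 5171092 to 8608369 reads per library (whole for 100% of values). Replicates differed beyond sampling noise (chi-square per degree of freedom 17.6 in cytosol, 27.9 in migrasome).

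Genes at 10 or more in at least 2 libraries were tested on log2(value + 1) with limma 3.58.1 (eBayes with a trend, R 4.3.3), adjusted over all genes tested. Tested on simulated counts for 10860 genes, it called 51 of 100 genes changed by a fold of 2 and 96 of 100 changed by 4, with 5 false calls. In that simulation as many genes were raised as lowered, and the spread of a gene was set by its level alone. Far fewer genes changed there than were called in the data (943 higher and 1919 lower), so these rates need not hold for the data. edgeR 4.0.16 and DESeq2 1.42.0 on recovered reads, other pseudocounts, filters, scalings, a replicate block and each left-out library were alternatives. Levels were compared between genes per kilobase of merged exons (GENCODE M21), and all 47 members were found there. Merged exons can be much longer than a single transcript, so the size of a ratio between genes depends on this choice. The length is the same in every library, so the order of the libraries does not. Shared 50-base stretches were sought in GENCODE transcripts on both strands. Some named items are not reported here, and counts still include them. Members and lists were chosen with earlier results of these data known. Named were the members past the threshold, the 12 most abundant, the paralogs and, more briefly, the rest; of the other lists, mainly the most abundant and the called genes. Mtch1, Ucp2, Mpc1, Mpc2, Timm22 and Slc8b1 were chosen after their values were seen.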

Additional observations from a re-analysis of the deposited data

How the results depend on the processing

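Of 14 alternatives, the pseudocounts of 0.5 and 5 and edgeR kept the direction and the call of all 36 tested carriers. The main counts were 1 higher and 3 lower, with a median difference of -0.16 (-0.0043 over all genes). Without a filter on low values, 0 were higher and 0 lower (median -0.10 over 43 members; fewer calls among all genes too, 393 higher and 1348 lower beside 943 and 1919). At a minimum mean of 50 the median was 0.039 over 30 members, with Slc25a26, Slc25a27, Slc25a29, Slc25a42, Slc25a43 and Slc25a53 not tested. Scaling to the same total gave 0 higher and 5 lower (median -0.43), and moved the median of all genes to -0.27 with 322 called higher and 2522 lower. Quantile normalization gave a median of 0.0275 and moved that of all genes to 0.11, with 1194 higher and 1403 lower. eBayes without a trend gave 0 higher (all genes 483 higher and 1671 lower), and DESeq2 gave 2 higher.

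The replicate numbers are not stated to pair the libraries. Same-numbered libraries deviated together with Pearson r = 0.226 across the 10860 genes, from only 2 pairs, and genes are not independent replicates. With the replicate block, 3 carriers were called higher and 6 lower, and 1802 and 2621 of all genes: Slc25a4, Slc25a11, Slc25a25, Slc25a28 and Slc25a42 were added and no call was lost. Leaving out a library, where the lone sample is taken to vary like the other group, gave 0 to 4 higher, 0 to 8 lower and medians from -0.19 to -0.087. The fewest carriers were called without cytosol replicate 1 and the most without migrasome replicate 2. Over all genes, 286 were higher and 1147 lower without cytosol replicate 1, 231 and 1183 without cytosol replicate 2, and 2085 and 2800 without migrasome replicate 2. The 4 called carriers kept their direction in every alternative that tested them.

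The sign turned for 16 of the 36, all uncalled. With the same total these were Slc25a10 (-0.15), Slc25a15 (-0.024), Slc25a17 (-0.22), Slc25a24 (-0.25), Slc25a30 (-0.15), Slc25a36 (-0.12), Slc25a38 (-0.21), Slc25a39 (-0.17) and Slc25a40 (-0.046). With quantile normalization they included Slc25a13 (0.019), Slc25a14 (0.012), Slc25a16 (0.0195), Slc25a24 (-0.33), Slc25a26 (0.29), Slc25a39 (-0.0755), Slc25a43 (0.047) and Slc25a51 (0.11), and with DESeq2 Slc25a51 (0.033). With a library left out, the ranges that crossed 0 were -0.038 to 0.28 for Slc25a10, -0.83 to 0.13 for Slc25a16, -0.094 to 0.20 for Slc25a17, -0.12 to 0.16 for Slc25a24, -0.25 to 0.37 for Slc25a38, -0.11 to 0.32 for Slc25a39 and -0.15 to 0.15 for Slc25a51. Apart from the smaller or larger sets of genes and libraries, the cause was not tested. Genes near the value of 3 reads (2.06 to 4.24), such as Slc25a29 in migrasome, are limited by depth.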
